A study of Homo sapiens with 6 samples.

Results

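The RNA of 9 tripartite motif (TRIM) genes was described in HT1080, an established human fibrosarcoma cell line, in 3 libraries of untreated cells and 3 libraries of cells treated with 20 ng/mL human IFNβ for 24 h. The genes, TRIM8, TRIM14, TRIM25, TRIM26, TRIM27, TRIM38, TRIM56, TRIM65 and TRIM69, were taken by name as the TRIM genes outside chromosome 11 whose proteins have known roles in RNA or DNA sensing. All 9 were found by their Ensembl IDs among the 62710 genes of the deposited table. The labels name human IFNβ for these cells, whereas the RNA sequencing methods of the study name mouse IFNβ, and both groups were grown in the same medium with serum.

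TRIM proteins are mostly RING-type E3 ubiquitin ligases, built of a RING finger, B-boxes and a coiled coil, often with a substrate-binding domain at the end. In innate immunity they attach ubiquitin to the proteins that carry the signal of viral RNA (RIG-I and MDA5 through MAVS) or cytosolic DNA (cGAS through STING) to the kinases TBK1 and IKKε, to the transcription factors IRF3 and NF-κB, and so to the IFNβ gene. Interferon in turn acts on promoters that hold an interferon-stimulated response element.

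Of the 9 genes, 6 were higher after IFNβ by at least 2-fold, 1 was slightly higher, 1 was slightly lower, and 1 was not distinguishable from untreated cells. TRIM69, TRIM14 and TRIM38 rose most, by 7.15, 4.10 and 3.98 times in mean FPKM (fragments per kilobase of gene, scaled to the fragments of the library). TRIM25, TRIM26 and TRIM56 rose by 2.35, 2.13 and 2.03 times. TRIM8 was 8.22% higher, TRIM65 fell by 13.2%, and TRIM27 was within the spread of its untreated libraries.

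A gene was called when the limma adjusted p-value over all 20716 genes tested was under 0.05 and the log2 fold change was at least 1 in either direction. By this rule 6 of the 9 genes were called, all higher, where 4.22% of all genes tested were called and 3.49% were called higher. At an adjusted p-value under 0.05 with any fold, 8 of the 9 passed, 7 higher and 1 lower, against 32.7% of all genes. The 3 treated libraries lay entirely above or below the untreated ones for 8 of the 9, against 46.6% of all genes. The median log2 fold change was 1.09 over the 9 genes and 0.00 over all genes tested. The genes differed widely among themselves, from -0.20 to 2.76, so the median, which is the value of TRIM26, does not describe them all.

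The libraries held between 22848104 and 32915500 fragments, as recovered from the steps of the FPKM values, and each of the 9 genes had between 344 and 14497 fragments in a library. Pearson's r of log2 values over 11996 genes was at least 0.9846 within a group and at most 0.9320 between groups, and no library stood apart from its group. All 10 mesenchymal markers listed for the check, VIM and SPARC among them, had a mean of at least 2.72 FPKM, whereas none of 6 epithelial and 6 blood cell markers reached 1 FPKM. IFIT1, ISG15 and MX1, genes known to respond to interferon, were all called higher. The statistics section of the study describes its in vitro experiments as independent biological replicates, but the labels do not say which culture each library came from. Unless they were separate, the p-values measure the spread between these libraries, which may be technical. Permuting 3 and 3 libraries exactly, gene by gene and two-sided, could not give p below 0.10. A bulk value cannot tell more expressing cells from more RNA in each cell.

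**Figure D1:**
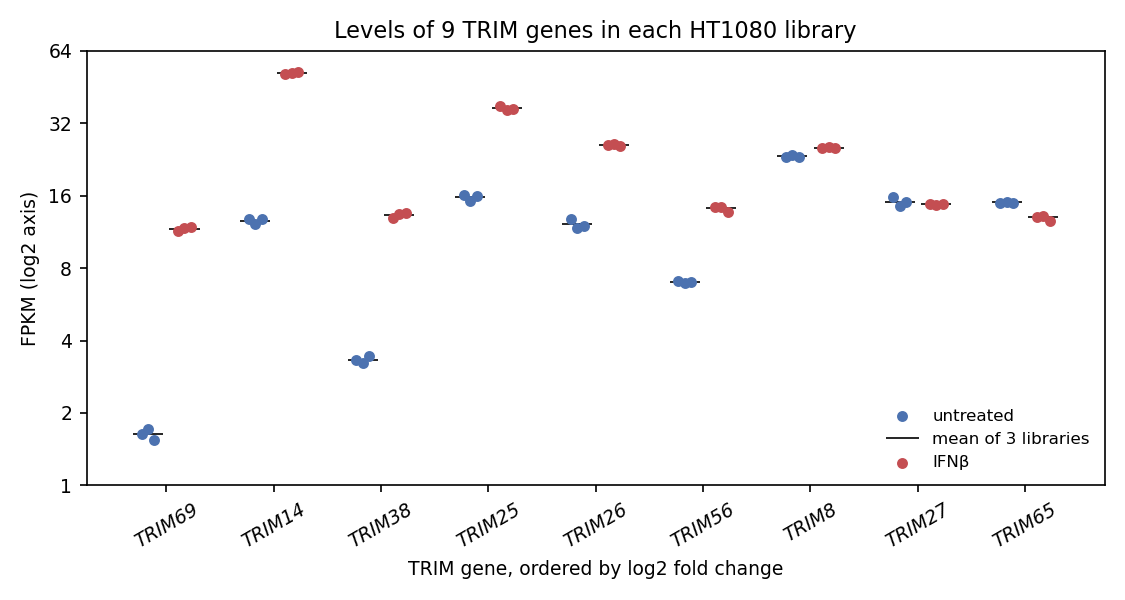
FPKM on a log2 axis of 9 TRIM genes, ordered by log2 fold change, with 3 untreated libraries (blue), 3 IFNβ-treated libraries (red) and the mean of each group (black line). The groups separate widely for the 6 genes on the left, narrowly for TRIM8 and TRIM65, and overlap for TRIM27.

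The sequence before the gene start is shown for the 7 genes with a RefSeq promoter window on GRCh38.p14. The genes were not chosen by the response element, but they were chosen with earlier results of these data known. TRIM8 and TRIM27 had no entry. Capitals mark matches, on either strand, to the core of the interferon-stimulated response element, which is a pair of TTTC units with 2 bases of any kind between them, and to the same pair with 1 base between them. The RefSeq start of TRIM69 lies 7540 bases inside the gene as GENCODE release 29 places it, whereas the other 6 starts lie within 52 bases of each other in the 2 annotations, so the TRIM69 window belongs to an internal start. Positions count from the RefSeq start at 0, and each sequence runs 5′ to 3′ on the strand of its gene.
TRIM69, chr15:44736408-44736527, plus strand, from -120 to -1: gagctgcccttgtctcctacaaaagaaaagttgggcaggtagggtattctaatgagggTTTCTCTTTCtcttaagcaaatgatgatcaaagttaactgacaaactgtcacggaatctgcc
TRIM14, chr9:98119223-98119342, minus strand, from -120 to -1: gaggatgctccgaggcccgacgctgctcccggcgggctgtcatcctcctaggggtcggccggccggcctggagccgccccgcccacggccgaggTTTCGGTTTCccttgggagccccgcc
TRIM26, chr6:30213491-30213610, minus strand, from -204 to -85: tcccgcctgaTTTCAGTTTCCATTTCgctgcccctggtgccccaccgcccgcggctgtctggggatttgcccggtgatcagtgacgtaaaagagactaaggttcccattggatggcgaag
TRIM25, chr17:56914044-56914169, minus strand, from -120 to 5: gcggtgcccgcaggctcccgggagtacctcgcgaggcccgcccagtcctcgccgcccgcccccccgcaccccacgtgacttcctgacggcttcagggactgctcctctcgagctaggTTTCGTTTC
TRIM56, chr7:101085361-101085496, plus strand, from -120 to 15: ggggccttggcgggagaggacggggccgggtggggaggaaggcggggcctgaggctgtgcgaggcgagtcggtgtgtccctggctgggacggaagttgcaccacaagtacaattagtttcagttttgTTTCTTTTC
TRIM38, chr6:25962682-25962801, plus strand, from -120 to -1: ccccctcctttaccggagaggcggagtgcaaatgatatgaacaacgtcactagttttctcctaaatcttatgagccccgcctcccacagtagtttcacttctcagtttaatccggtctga
TRIM65, chr17:75896952-75897071, minus strand, from -120 to -1: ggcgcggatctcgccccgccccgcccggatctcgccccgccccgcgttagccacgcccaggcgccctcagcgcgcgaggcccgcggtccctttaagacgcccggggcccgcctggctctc
TRIM14 held the core from -26 to -17 and TRIM69 from -62 to -53. TRIM26 held overlapping copies of it, from -194 to -185 and from -188 to -179. TRIM25 and TRIM56 held the narrower spacing across or just after the start, from -3 to 5 and from 7 to 15. These 5 genes were called. TRIM38, which was also called, and TRIM65, which was not, held no exact match to either spacing in their windows. Near matches were not searched. The core was present in 3 of the 7 windows and in 3.57% of 35116 RefSeq windows of 300 bases, and the narrower spacing in 2 of 7 and 3.12%. The narrower spacing was added after these windows had been read. The core TTCNNNGAA of the gamma-activated sequence, another interferon-responsive element, was in none of the 7 and in 7.66% of all windows.

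Of 348 genes called higher with a window, 23.0% held the core and 12.6% the narrower spacing, against 3.01% and 2.74% of 11533 genes tested with a window. Of 31 genes called lower with a window, 1 (3.23%) held the core and 0 the narrower spacing. The other genes of the 722 called higher and the 153 called lower are not in these shares. Of the 7 TRIM genes with a window only TRIM65 was not called, so the shares among them are not independent of the calls. These shares are descriptions, and a match is not evidence that a factor binds there.

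**Figure D2:**
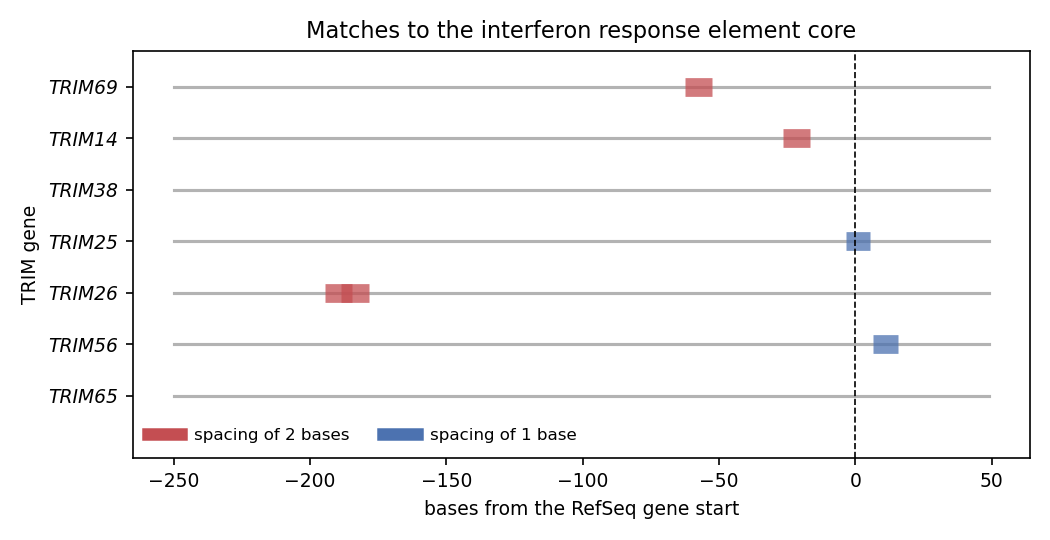
Matches to TTTC pairs with 2 bases (red) or 1 base (blue) between them in the window from 250 bases before to 49 bases after the RefSeq start of 7 TRIM genes, ordered by log2 fold change. The matches of TRIM14, TRIM25 and TRIM56 lie within 26 bases of the start, that of TRIM69 begins at -62, those of TRIM26 lie between -194 and -179, and the lines of TRIM38 and TRIM65 are empty.

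All 9 genes code for proteins, their positions are those of GENCODE release 29 on GRCh38, and the values are per gene, not per transcript or exon. Among the ligases of the RNA sensors, TRIM25, known for attaching ubiquitin chains to RIG-I, rose and TRIM65, known for acting on MDA5, fell. TRIM25 (ENSG00000121060), on chromosome 17 from 56836387 to 56914080, had 16.1, 15.2 and 15.9 FPKM in the untreated libraries and 37.9, 36.4 and 36.7 FPKM after IFNβ. All treated libraries were above all untreated ones. Its mean went from 15.8 ± 0.470 to 37.0 ± 0.795 FPKM (mean ± S.D., n = 3), or 1.23 on the log2 scale (limma, s.e. 0.03, adjusted p = 1.0e-06). Its exons share 80 bp with DGKE on the other strand and 132 bp with C17orf67 on its own strand, whose log2 fold changes were 0.23 and 0.74, with at most 916 and 109 fragments in a library against at least 4573 of TRIM25.

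TRIM65 (ENSG00000141569), on chromosome 17 from 75880335 to 75897003, had 14.9, 15.1 and 14.9 FPKM in untreated cells and 13.1, 13.2 and 12.6 FPKM after IFNβ. Each treated library was below each untreated one. The means were 15.0 ± 0.0936 and 13.0 ± 0.321 FPKM (mean ± S.D., n = 3), and the log2 fold change was -0.20 (95% confidence interval -0.27 to -0.14, limma adjusted p = 0.0015). A fall of any size at an adjusted p-value under 0.05 was found for 17.5% of all genes tested.

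TRIM14 stands apart in structure, since it lacks the RING finger and so acts as an adaptor, known for binding MAVS on mitochondria and for recruiting USP14 to cGAS. TRIM14 (ENSG00000106785), on chromosome 9 from 98069275 to 98119212, had 12.8, 12.2 and 12.8 FPKM in untreated cells and 51.2, 51.8 and 52.0 FPKM after IFNβ. With a gain of 39.1 FPKM it added more than any of the other 8 genes, and its groups lay far apart. Its means were 12.6 ± 0.316 and 51.7 ± 0.418 FPKM (mean ± S.D., n = 3), or 2.03 on the log2 scale (limma, s.e. 0.02, adjusted p = 3.9e-08). It shares 422 bp of exon with NANS on the other strand, which had a log2 fold change of 0.33 and at most 1353 fragments in a library, where TRIM14 had 1602 to 8644.

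Both ligases that act on the DNA-sensing pathway rose, TRIM38 more than TRIM56. TRIM56, known for ubiquitinating STING and cGAS (ENSG00000169871, chromosome 7 from 101085439 to 101097967), had 7.04, 6.91 and 6.97 FPKM against 14.3, 14.4 and 13.7 FPKM after IFNβ. All untreated libraries were far below all treated ones. The means were 6.97 ± 0.0660 and 14.2 ± 0.382 FPKM (mean ± S.D., n = 3), or 1.01 on the log2 scale (limma, s.e. 0.03, adjusted p = 2.4e-06). This lies at the fold threshold, and the fold came to 0.93 when the pseudocount was 1, 0.99 after quantile scaling and 0.998 when IFNβ replicate 2 was left out, where the gene was not called although its adjusted p-value stayed under 0.05.

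TRIM38, which acts on STING and cGAS as well as on TRIF and on the TAK1 adaptors TAB2 and TAB3 (ENSG00000112343, chromosome 6 from 25962802 to 25991226), had 3.33, 3.22 and 3.44 FPKM in untreated cells. After IFNβ it had 12.9, 13.4 and 13.5 FPKM. The means were 3.33 ± 0.111 and 13.3 ± 0.282 FPKM (mean ± S.D., n = 3), or 1.96 on the log2 scale (limma, s.e. 0.04, adjusted p = 3.1e-07). From the second lowest level of the 9 genes in untreated cells it thus reached about the level of TRIM65.

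The 3 genes whose proteins act further down, on TAK1, TBK1 and IRF3, did not move together. TRIM26, known for driving the degradation of nuclear IRF3 and for bridging TBK1 to NEMO (ENSG00000234127, chromosome 6 from 30184455 to 30213427), had 12.8, 11.7 and 12 FPKM before and 26, 26.3 and 25.7 FPKM after IFNβ. All treated libraries were above all untreated ones. Its means were 12.2 ± 0.562 and 26 ± 0.328 FPKM (mean ± S.D., n = 3), or 1.09 on the log2 scale (95% confidence interval 1.00 to 1.18, limma adjusted p = 4.7e-06).

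TRIM8, a ligase of TAK1 and a partner of the inhibitors SOCS1 and PIAS3 (ENSG00000171206, chromosome 10 from 102642310 to 102660680), had 23.2, 23.7 and 23.2 FPKM in untreated cells and 25.2, 25.4 and 25.2 FPKM after IFNβ. The groups did not overlap, but the gain was 1.92 FPKM, from 23.3 ± 0.292 to 25.3 ± 0.148 FPKM (mean ± S.D., n = 3). The log2 fold change of 0.11 had a 95% confidence interval from 0.07 to 0.16 (limma adjusted p = 0.0047), and its limma adjusted p-value was 0.052 when the intensity trend was left out. Its exons share 1349 bp with TRIM8-DT on the other strand, which had a log2 fold change of 0.09.

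TRIM27, known for acting on TBK1, IKKε and NOD2 and for its complex with USP7 (ENSG00000204713, chromosome 6 from 28903002 to 28923989), had 15.8, 14.5 and 15.0 FPKM in untreated cells and 14.8, 14.6 and 14.8 FPKM after IFNβ. The treated values lay inside the range of the untreated ones, with means of 15.1 ± 0.665 and 14.7 ± 0.133 FPKM (mean ± S.D., n = 3). The log2 fold change was -0.04 with a 95% confidence interval from -0.12 to 0.05 (limma adjusted p = 0.48). TRIM26 and TRIM27 lie on the same arm of chromosome 6 as TRIM38, and only TRIM27 of these 3 was not called.

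TRIM69, which binds microtubules and is known for restricting the growth of RNA viruses, had the lowest level of the 9 in both groups and the largest fold. TRIM69 (ENSG00000185880), on chromosome 15 from 44728988 to 44767829, had 1.63, 1.71 and 1.55 FPKM in untreated cells and 11.4, 11.7 and 11.8 FPKM after IFNβ. Its means were 1.63 ± 0.0775 and 11.6 ± 0.203 FPKM (mean ± S.D., n = 3), or 2.76 on the log2 scale (limma, s.e. 0.05, adjusted p = 1.5e-07). At this low untreated level the size depends on the pseudocount, and it was 2.27 with a pseudocount of 1. It rests on 344, 469 and 473 fragments in the untreated libraries and on 3254, 2707 and 3158 in the treated ones.

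**Figure D3:**
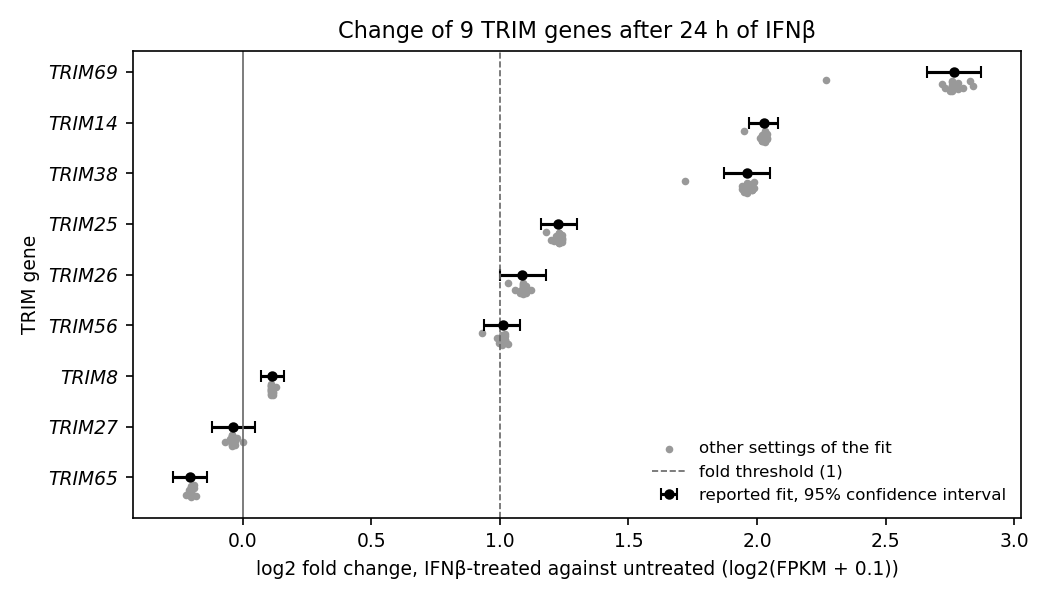
Log2 fold change of 9 TRIM genes after IFNβ, with the 95% confidence interval of the limma fit (black) and the values under 17 other settings each (grey). The stricter p-value threshold is among these settings and repeats the reported fold change. TRIM69, TRIM14, TRIM38, TRIM25 and TRIM26 stay right of the fold threshold of 1 (dashed) under all of these settings, and TRIM56 straddles it between 0.93 and 1.03.

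Neighbouring folds were compared within libraries, by the difference of the log2(FPKM + 0.1) values of the 2 genes in each library. That of TRIM69 less TRIM14 was at most -2.77 in untreated libraries and at least -2.16 in treated ones, so TRIM69 gained on TRIM14 beyond the spread. TRIM14 and TRIM38 were much closer, with a difference of at most 1.91 before and at least 1.94 after, or 1.941 and 1.951 without the pseudocount. TRIM26 and TRIM56 did not separate, since their difference reached 0.86 in an untreated library and 0.85 in a treated one. TRIM25 separated from TRIM26, with a difference of at most 0.40 before and at least 0.47 after.

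Levels can be compared between genes because FPKM are scaled by length, and IFNβ changed their order. In untreated cells TRIM8 was highest, at 23.3 ± 0.292 FPKM (S.D., n = 3), and made up between 21.5% and 22.7% of the summed FPKM of the 9 genes. TRIM25, TRIM27 and TRIM65 followed between 15.8 and 15.0 FPKM with overlapping ranges, then TRIM14 and TRIM26, also overlapping, then TRIM56, TRIM38 and TRIM69, each clear of the next. After IFNβ, TRIM14 was highest with 24.7% to 25.3% of the sum, followed by TRIM25, TRIM26 and TRIM8. TRIM38 and TRIM65 were the only neighbours that overlapped after treatment, at 13.3 and 13.0 FPKM. The sum of the 9 rose from between 104 and 108 FPKM to between 206 and 207 FPKM. The rank of TRIM8 depends on the length behind its FPKM, recovered from the values as 5011 bp, where release 29 of GENCODE has 9542 bp of exon. With release 29 lengths TRIM8 had 12.3 FPKM and ranked 5 in untreated cells, and TRIM25 had 20.6 FPKM and ranked 1. After IFNβ, TRIM8 then had 13.3 FPKM and ranked 6, and TRIM25 had 48.4 FPKM against 51.8 FPKM of TRIM14. The sums and shares above depend on the lengths as well. The ratio of mean FPKM between groups does not depend on the length, and log2 fold changes with a pseudocount depend on it only where levels are low.

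The other TRIM family genes outside chromosome 11 gave the comparison with the rest of the family. Of the 49 Ensembl IDs compared, which list TRIM16L again under an ID at 0 in every library, 31 were tested and 1 was called. The called gene was PML, which forms the nuclear bodies named after it and rose from 7.46 ± 0.377 to 33.3 ± 0.478 FPKM (mean ± S.D., n = 3). The median log2 fold change of the 31 was 0.01. At an adjusted p-value under 0.05 with any fold, 8 passed, 4 higher and 4 lower, where 32.7% of all genes tested passed and 4.22% were called. The largest changes after PML were those of TRIM62 (0.48), TRIM35 (0.39) and TRIM46 (0.33, limma adjusted p = 0.067), which were chosen by their values. The 9 genes were chosen for their role in sensing, with earlier results known, and the difference between the lists was not tested.

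**Figure D4:**
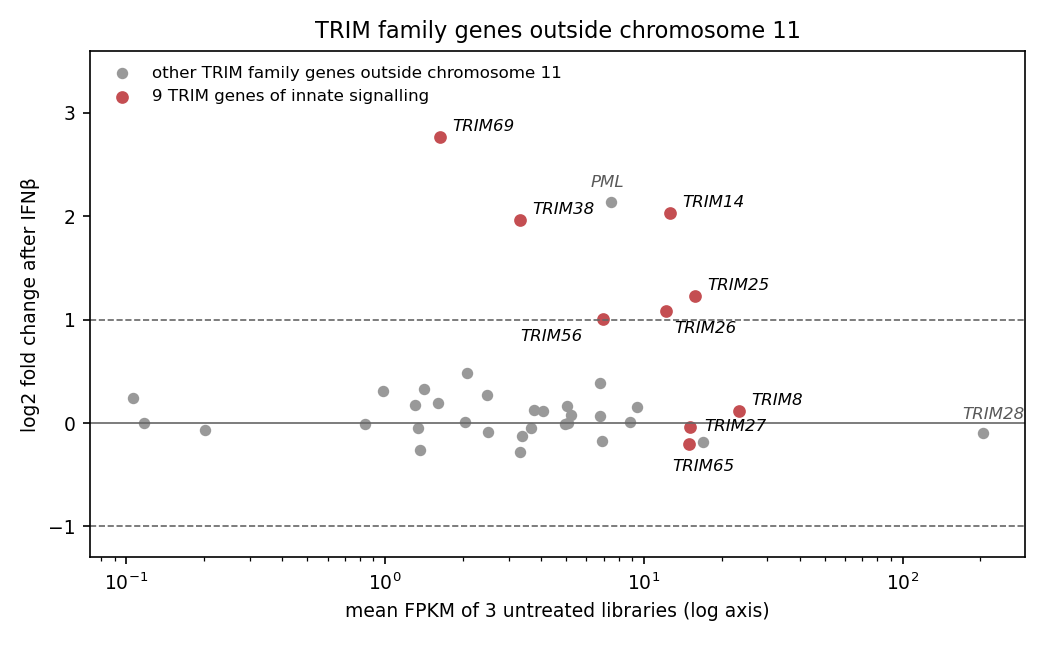
Log2 fold change after IFNβ against the mean FPKM of 3 untreated libraries (log axis) for 9 TRIM genes of innate signalling (red) and 31 other TRIM family genes outside chromosome 11 (grey), with the fold thresholds dashed. The grey points other than PML lie between -0.28 and 0.48, and TRIM28, the most abundant at 204 FPKM, lies at -0.10.

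The genes on which these proteins act were described from 4 lists with 45 genes, of which 42 were tested and 10 were called, all higher, against 4.22% of all genes tested. At an adjusted p-value under 0.05 with any fold, 26 passed, 21 higher and 5 lower, against 32.7% of all genes, 15.2% higher and 17.5% lower. The called genes were sensors, STING1, USP18 and SOCS1. No kinase or transcription factor was among them, but 17 genes of that list are too few to differ clearly from the 4.22% called over all genes. Of 9 genes of RNA sensing, 4 were called. IFIH1, which encodes MDA5, the target of TRIM65, had 1.46, 1.68 and 1.31 FPKM in untreated cells and 57.1, 57.9 and 58.8 FPKM after IFNβ, a log2 fold change of 5.20 (limma adjusted p = 1.4e-07). MDA5 transcripts thus rose 39.1 times in mean FPKM while those of its ligase TRIM65 fell by 13.2%. DHX58 and TLR3, both RNA sensors, had log2 fold changes of 4.85 and 3.41. With a pseudocount of 1 these were 3.95 and 2.72, and that of IFIH1 was 4.57. ZC3HAV1, which binds viral RNA, was just under the fold threshold at 0.95 (limma adjusted p = 3.0e-06).

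RIGI, which encodes RIG-I, the target of TRIM25, went from 0.0752 ± 0.0101 to 1.36 ± 0.0592 FPKM (mean ± S.D., n = 3), or 3.06 on the log2 scale (limma adjusted p = 2.5e-05). Its untreated values rest on 18, 26 and 22 fragments. The length recovered from its FPKM was 10345 bp, where release 29 has 4353 bp of exon, and its level is uncertain for both reasons. The size of its change is also uncertain, since it was 1.14 with a pseudocount of 1, 4.02 with a pseudocount of 0.01 and 4.17 with limma-voom on fragments, and the means differed 18.1 times. MAVS, the adaptor of both sensors and partner of TRIM14, was at 8.97 ± 0.20 and 8.65 ± 0.115 FPKM (mean ± S.D., n = 3), with a 95% confidence interval of the log2 fold change from -0.12 to 0.02. TICAM1, which encodes TRIF, rose by 0.22. RNF125, a ligase of RIG-I, fell by 0.74 on the log2 scale and RNF135, another, was at -0.08 (limma adjusted p = 0.38).

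Of 8 genes of DNA sensing and related sensors, 6 were tested and 4 were called, against 4.22% of all genes. STING1, a target of TRIM56 and TRIM38, had 9.14, 9.94 and 10.1 FPKM in untreated cells and 24.5, 23.5 and 22.9 FPKM after IFNβ, a log2 fold change of 1.27 (limma adjusted p = 6.5e-06). CGAS, the enzyme upstream of it, had 1.30, 1.07 and 1.27 FPKM against 1.56, 1.58 and 1.59 FPKM, a log2 fold change of 0.36 (limma adjusted p = 0.027) that no longer passed without untreated replicate 3 or without any of the IFNβ replicates. IFI16 and AIM2 had log2 fold changes of 2.05 and 3.69, and that of AIM2 was 2.74 with a pseudocount of 1. ZBP1 had no fragment in any untreated library and reached 1.86 ± 0.101 FPKM (S.D., n = 3), which is at least 93.5-fold higher than 3 fragments in each library would give. TREX1, whose exons all lie within those of ATRIP, was listed at 0 in every library, and NOD2 had at most 8 fragments in a library.

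None of 17 kinases, adaptors and transcription factors tested was called by limma, and 9 had an adjusted p-value under 0.05, 6 higher and 3 lower, where 4.22% of all genes were called and 32.7% passed. The largest were IRF3, the target of TRIM26, from 8.15 ± 0.115 to 12.3 ± 0.202 FPKM (mean ± S.D., n = 3), or 0.59 on the log2 scale (limma adjusted p = 1.8e-05), and IKBKE, which encodes IKKε, at 0.53 (limma adjusted p = 1.8e-04). TBK1, shared by TRIM26 and TRIM27, was at 4.24 ± 0.190 and 4.40 ± 0.147 FPKM (mean ± S.D., n = 3), with an interval from -0.06 to 0.17. IKBKG, which encodes NEMO, was at 0.08 with an interval from -0.38 to 0.54, and at -0.13 without IFNβ replicate 2. MAP3K7, which encodes TAK1, had a log2 fold change of -0.11 and its adaptors TAB2 and TAB3 of 0.09 and 0.15. The limma adjusted p-values of these 3 were 0.0496, 0.018 and 0.022, and none of these is stable to the loss of a library. Leaving out any library but untreated replicate 1 took MAP3K7 above 0.05 (up to 0.14), leaving out any but untreated replicate 3 did so for TAB3 (up to 0.073), and leaving out untreated replicate 1 or IFNβ replicate 2 or 3 did so for TAB2 (up to 0.064). MYD88 was under the filter, with 4 to 12 fragments in a library. IRF7, named here for its low depth, had 34 to 72 fragments and a log2 fold change of 0.02 with an interval from -0.47 to 0.50.

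Of 10 deubiquitinases and inhibitors, 2 were called, against 4.22% of all genes. USP18, which removes ISG15 and dampens interferon signalling, had a log2 fold change of 6.38, or 5.29 with a pseudocount of 1, and SOCS1, a partner of TRIM8, went from 1.81 ± 0.281 to 4.11 ± 0.263 FPKM (mean ± S.D., n = 3), a gain of 1.15 in log2 that was 0.87 with a pseudocount of 1. Of the deubiquitinases that pair with a TRIM protein, USP15, which removes ubiquitin from TRIM25, rose by 0.39 (limma adjusted p = 6.7e-04), USP7 fell by 0.36 on the log2 scale (limma adjusted p = 7.6e-05), and USP14 was at -0.03 (limma adjusted p = 0.44). PIAS3, the other inhibitor that TRIM8 binds, was at 0.09 (limma adjusted p = 0.29).

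**Figure D5:**
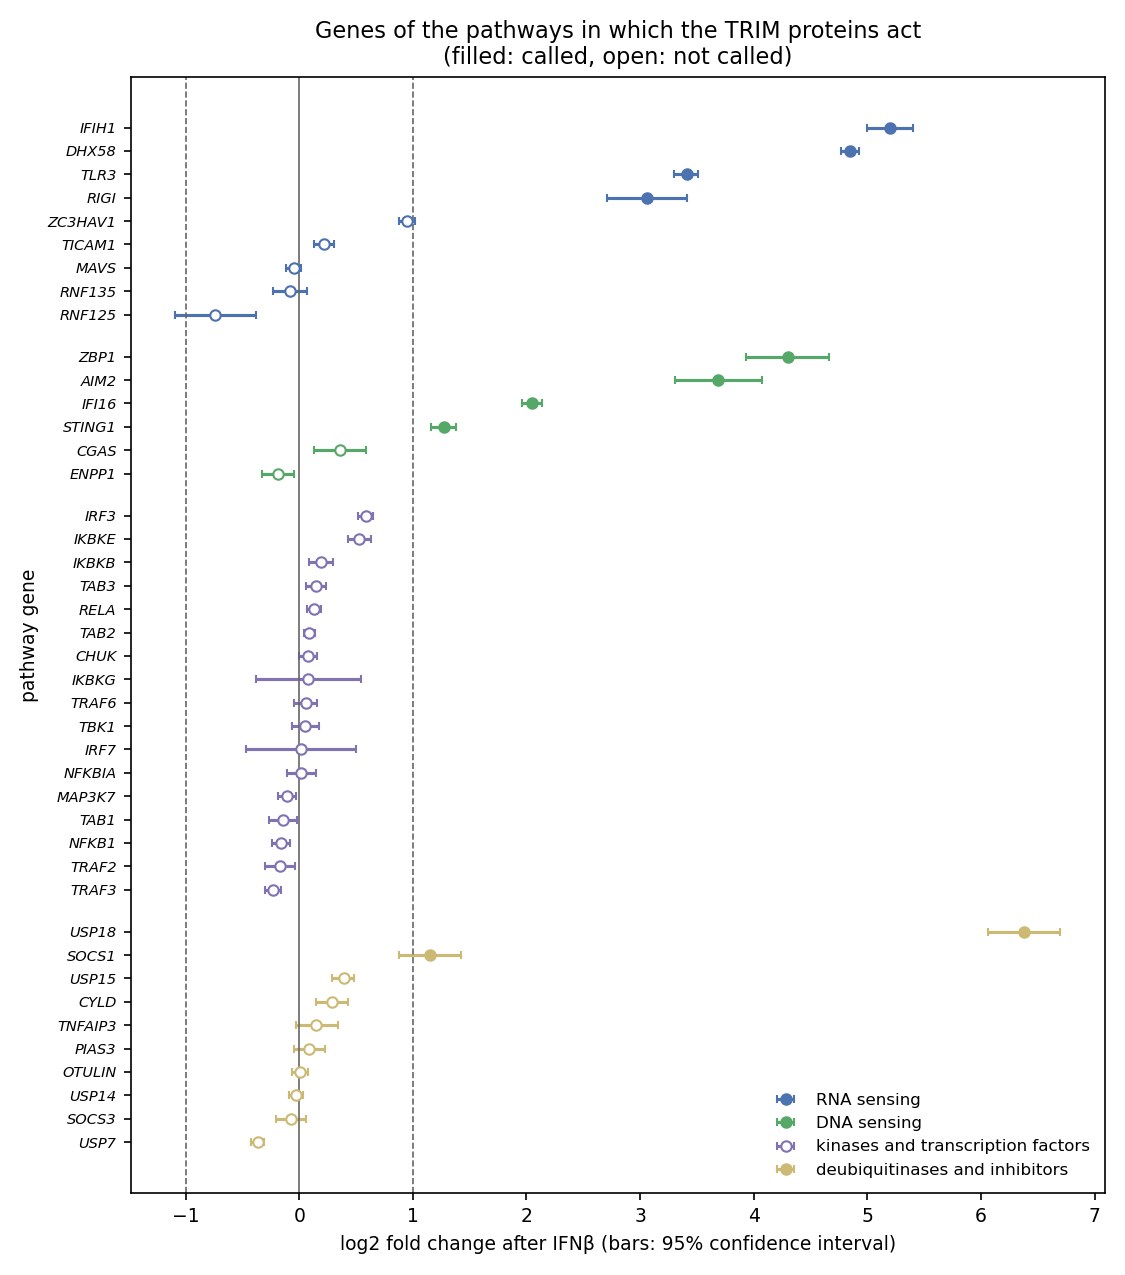
Log2 fold change after IFNβ, with its 95% confidence interval, of 42 pathway genes in 4 lists, filled where called and open where not, with the fold thresholds dashed. Sensors such as IFIH1 and ZBP1 lie far to the right, the 17 kinases, adaptors and transcription factors lie between -0.23 and 0.59, and the position of ZBP1 depends on the pseudocount because its untreated libraries are at 0.

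The genes most like each called TRIM gene were found by the root mean square difference of log2 values, less the untreated mean, over the 6 libraries, among 11244 genes outside the family with a mean of at least 1 FPKM. TRIM69 was closest to IFITM3 (difference 0.060) and RNF213 (0.065), with log2 fold changes of 2.83 and 2.82. TRIM14 was closest to IFI16 (0.053) and APOL2 (0.055). TRIM38 was closest to B2M (0.043), the light chain of class I molecules, and LGALS3BP (0.045). TRIM25 was closest to CSF1 (0.027) and COL8A1 (0.043), TRIM26 to ZFYVE26 (0.016) and THBS1 (0.024), and TRIM56 to DENND3 (0.015) and LNPEP (0.024). The likeness is one of size of change, since all the libraries fall into 2 groups, and their levels differ widely, as with 543 FPKM of B2M and 13.3 FPKM of TRIM38 after IFNβ.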

How the data were processed

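RNA of HT1080 cells was measured in 6 libraries, with paired reads. The deposited values are FPKM, which the authors computed per Ensembl gene and library without pooling. The submitters' processing notes name fastp, HISAT2, StringTie and GRCh38, and versions, annotation, gene lengths and strandedness are not given in the sources used here. The authors tested their groups with DESeq2. FPKM are not counts, so limma (version 3.58.1, R 4.3.3; lmFit, eBayes with trend) was run here on log2(FPKM + 0.1), leaving out genes whose mean was under 0.1 FPKM, without covariates and with Benjamini-Hochberg adjustment over all genes tested. A fold change on this scale understates low genes.

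Whole fragments were recovered with GENCODE release 29 exon lengths (tolerance 0.001) or from the proportions of a gene's values. Locations and overlaps are from that release, which lacks 4436 of the IDs. Promoter windows are from RefSeq. The procedure was tested on simulated data. Recovery of changed genes was required only at fragment counts like those of the TRIM members, so the test does not cover lower genes such as RIGI. Figures used Python (pandas 2.3.3, matplotlib 3.10.9).

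The members and lists were chosen with earlier results of these data known. Named were all members, their known direct partners and called genes of the pathway lists, called family genes, and the 2 genes most like each called member. Other names are marked. Alternatives were pseudocounts, filters, scalings, eBayes without trend, a replicate block, each library left out, a stricter threshold and limma-voom on fragments. Same-numbered libraries deviated from their group means with correlations of 0.053, -0.018 and 0.122 over 11996 genes, so the numbers were not taken as pairs.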

Additional observations from a re-analysis of the deposited data

How the results depend on the processing

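The number of called genes among the 9 TRIM genes was 6, and 5 with a pseudocount of 1, with quantile normalization or without IFNβ replicate 2, each time without TRIM56. With single libraries left out it was 5 to 6. The number with an adjusted p-value under 0.05 was 8, and 7 without the trend, where TRIM8 had 0.052. Over 17 settings each, log2 fold changes ran from 2.27 to 2.84 for TRIM69, 1.95 to 2.04 for TRIM14, 1.72 to 1.99 for TRIM38, 1.18 to 1.24 for TRIM25, 1.03 to 1.12 for TRIM26 and -0.22 to -0.18 for TRIM65. The stricter p-value threshold is among these settings and leaves the fold changes as they were. Of 59 genes with log2 fold changes recomputed under these settings, IKBKG, which passed no threshold, changed sign, from 0.08 to -0.13 without IFNβ replicate 2, within a range from -0.13 to 0.20 over the libraries left out. Of the other family genes outside chromosome 11, PML was called under every setting run. The pathway genes called numbered 10, 9 with a pseudocount of 1 and 8 under a filter at a mean of 1 FPKM. That filter left RIGI and ZBP1 untested.

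Over all genes, 875 were called, 722 of them higher. A pseudocount of 1 gave 304 (278 higher). A filter at a mean of 1 FPKM gave 425 (365 higher), where only 11996 genes were tested. Leaving out each library in turn gave 809 to 867, and 643 to 724 higher. The cause with a pseudocount of 1 was not tested.

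With the replicate block, 829 genes were called, among them the same 6 TRIM genes. Among the 59 genes it took CGAS, MAP3K7, TAB3 and DGKE above an adjusted p-value of 0.05 and changed no other. With the exon lengths of release 29, added after seeing the lengths, TRIM8 moved from 23.3 to 12.3 FPKM and TRIM25 from 15.8 to 20.6 FPKM in untreated cells. Depth limits RIGI, with 18 to 26 untreated fragments.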
